A study of Mus musculus with 35 samples.

Results

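Methylation of histone H3 at lysine 4 is written by the enzymes of the COMPASS family. The genes described are the 6 enzymes of that family, Kmt2a, Kmt2b, Kmt2c, Kmt2d, Setd1a and Setd1b, and the 4 core subunits that all of the complexes share, Ash2l, Wdr5, Rbbp5 and Dpy30. They were taken by name from the 24480 genes of a count table, and all 10 were found. RNA-seq had been performed on 35 samples of C57BL/6NRj mouse zygotes and 2-cell (2C) embryos that had been injected with mRNA for the H3K4 demethylase KDM5B fused to YFP (Kdm5b-yfp, about 1150 ng/µl) or with nuclease-free water. Zygotes were injected in S phase and collected 17 h after ovulation, and both blastomeres of 2C embryos were injected in G1 and collected 5.5 to 8 h after division, in each case about 5 to 6 h post-injection. There were 10 single zygotes in the water control group, 10 single zygotes in the Kdm5b group, 9 control 2C samples and 6 Kdm5b 2C samples. The control 2C group was made up of 6 single intact embryos and 3 pools of single blastomeres from 2 or 3 embryos, and the Kdm5b 2C group of 5 single intact embryos and 1 such pool of 3.

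All groups have the same strain background. None received a control mRNA, so what the injection of any mRNA does and what KDM5B does cannot be told apart. The 2C embryos had been thawed as cryopreserved zygotes, and zygote and 2C libraries had been made on separate days, so stage, thawing and day of library preparation cannot be told apart. Each sample held between 8705584 and 17797581 gene counts, and Kdm5b took 2.30% to 10.4% of them in injected zygotes and 8.27% to 15.8% in injected 2C samples, against at most 0.0189% in any control. Its row was set aside before any other value was computed. No spike-in values were used here, so every level is relative to the other RNA of the same sample. A change in the number of transcripts of a gene and a change in the other RNA cannot be told apart. Neither can fewer transcripts per embryo and fewer per cell.

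In each complex a single SET domain enzyme sits on a module of WDR5, RBBP5, ASH2L and DPY30, which raises its activity. RBBP5 and ASH2L form the pair that contacts the SET domain directly, WDR5 holds the enzyme to the module, and DPY30 is a small dimer that docks on ASH2L. SETD1A and SETD1B write most of the trimethylation at active promoters, KMT2A (MLL1) and KMT2B (MLL2) act at developmental and CpG-rich promoters, and KMT2C (MLL3) and KMT2D (MLL4) write mainly the monomethylation of enhancers. KMT2B is known as the enzyme that lays down the broad H3K4me3 of growing oocytes.

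On GRCm38, the build of the count table, Kmt2a lies at chr9:44803355-44881274, Kmt2b at chr7:30568855-30588726, Kmt2c at chr5:25271794-25498783, Kmt2d at chr15:98831669-98871205, Setd1a at chr7:127777389-127800122 and Setd1b at chr5:123142193-123168630. Of the core subunits, Ash2l lies at chr8:25816000-25847694, Wdr5 at chr2:27515147-27536535, Rbbp5 at chr1:132477367-132505665 and Dpy30 at chr17:74299474-74323944. Their counted exons add up to between 1108 bases in Dpy30 and 19827 bases in Kmt2d, so levels of different genes are compared below only as TPM, the count per base of exon, scaled so that all samples have an equal sum.

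RefSeq promoter windows of GRCm38.p6, from 250 bases before to 50 bases after a transcript start, were found for 7 of the 10 genes. The windows of Kmt2c, Kmt2d and Rbbp5 are shown because these 3 genes had the largest differences between the control stages among the genes with a window, and their starts are those of the genes in the count table. Capitals mark the GC box GGGCGG or its reverse complement CCGCCC, the binding motif of SP-family factors, with overlapping matches counted separately.
Kmt2c: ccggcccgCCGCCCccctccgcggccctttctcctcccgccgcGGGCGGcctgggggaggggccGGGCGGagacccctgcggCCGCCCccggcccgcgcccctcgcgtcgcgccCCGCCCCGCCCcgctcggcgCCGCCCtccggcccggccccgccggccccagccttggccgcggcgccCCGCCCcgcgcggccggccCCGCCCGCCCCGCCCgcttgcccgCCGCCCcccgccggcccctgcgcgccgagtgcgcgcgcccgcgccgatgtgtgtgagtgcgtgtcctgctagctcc
Kmt2d: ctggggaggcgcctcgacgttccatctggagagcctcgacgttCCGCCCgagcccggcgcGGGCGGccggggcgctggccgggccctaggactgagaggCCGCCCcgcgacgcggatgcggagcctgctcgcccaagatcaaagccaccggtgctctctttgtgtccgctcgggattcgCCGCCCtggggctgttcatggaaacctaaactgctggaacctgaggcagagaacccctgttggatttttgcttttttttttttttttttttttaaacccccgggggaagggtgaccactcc
Rbbp5: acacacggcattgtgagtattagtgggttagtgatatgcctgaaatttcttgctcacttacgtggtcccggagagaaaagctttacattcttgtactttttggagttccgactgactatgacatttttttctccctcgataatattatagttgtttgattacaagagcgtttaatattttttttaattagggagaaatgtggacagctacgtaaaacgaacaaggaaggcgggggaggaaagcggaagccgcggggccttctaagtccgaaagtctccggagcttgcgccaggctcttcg
The Kmt2c window (chr5:25498734-25499033, minus strand) held 12 GC boxes, 56 CpG dinucleotides and 88% G and C. That of Kmt2d (chr15:98871156-98871455, minus strand) held 4 GC boxes, 27 CpG dinucleotides and 62.7% G and C. The Rbbp5 window (chr1:132477117-132477416, plus strand) held none of these letters, with 16 CpG dinucleotides and 44% G and C. Of all 32851 promoter windows of the same length, 35.7% held a GC box, and the median window had 7 CpG dinucleotides and 52.7% G and C. Of the windows not shown, those of Kmt2a and Wdr5 held 5 and 2 GC boxes and that of Setd1a held 0. The Dpy30 window at its start in the count table held 0, and those further in held 0 or 1. A match is a string of letters and not a shown binding site.

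Of the enzymes, 5 were well represented in every sample and Kmt2a was close to absent. In control zygotes Kmt2c lay between 296 and 348 TPM with a median of 318, and Kmt2d between 243 and 300.3 TPM with a median of 273. Kmt2b followed at 155 to 175 TPM, median 166. Setd1a lay at 106 to 128 TPM, median 117, and Setd1b at 53.5 to 66.9 TPM, median 58.6. Kmt2a had a median of 0.445 TPM, from 0.0805 to 6.52 TPM, which rests on 6 to 535 counts per zygote. As a share of the summed TPM of the 6 enzymes, Kmt2c made up 34.3% ± 1.04, Kmt2d 29.1% ± 1.11, Kmt2b 17.7% ± 0.548, Setd1a 12.5% ± 0.705, Setd1b 6.32% ± 0.354 and Kmt2a 0.125% ± 0.189 (SD, n = 10). The transcript of the oocyte enzyme Kmt2b thus stood far above that of its paralog Kmt2a, with a mean log2 ratio of Kmt2a to Kmt2b of -8.09 ± 1.67 (SD, n = 10).

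The core subunits were unequal as well. In control zygotes Wdr5 lay between 314 and 404 TPM with a median of 374, and Dpy30 between 258 and 331 TPM with a median of 315. Rbbp5 lay lower, at 88.1 to 133 TPM, median 104, and Ash2l lower still, at 53.3 to 81.5 TPM, median 61.3. Wdr5 and Dpy30, the scaffold and the small docking subunit, thus held 43.0% ± 2.09 and 36.9% ± 1.94 of the summed TPM of the 4 core subunits, against 12.6% ± 1.63 for Rbbp5 and 7.56% ± 1.23 for Ash2l (SD, n = 10).

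**Figure D1:**
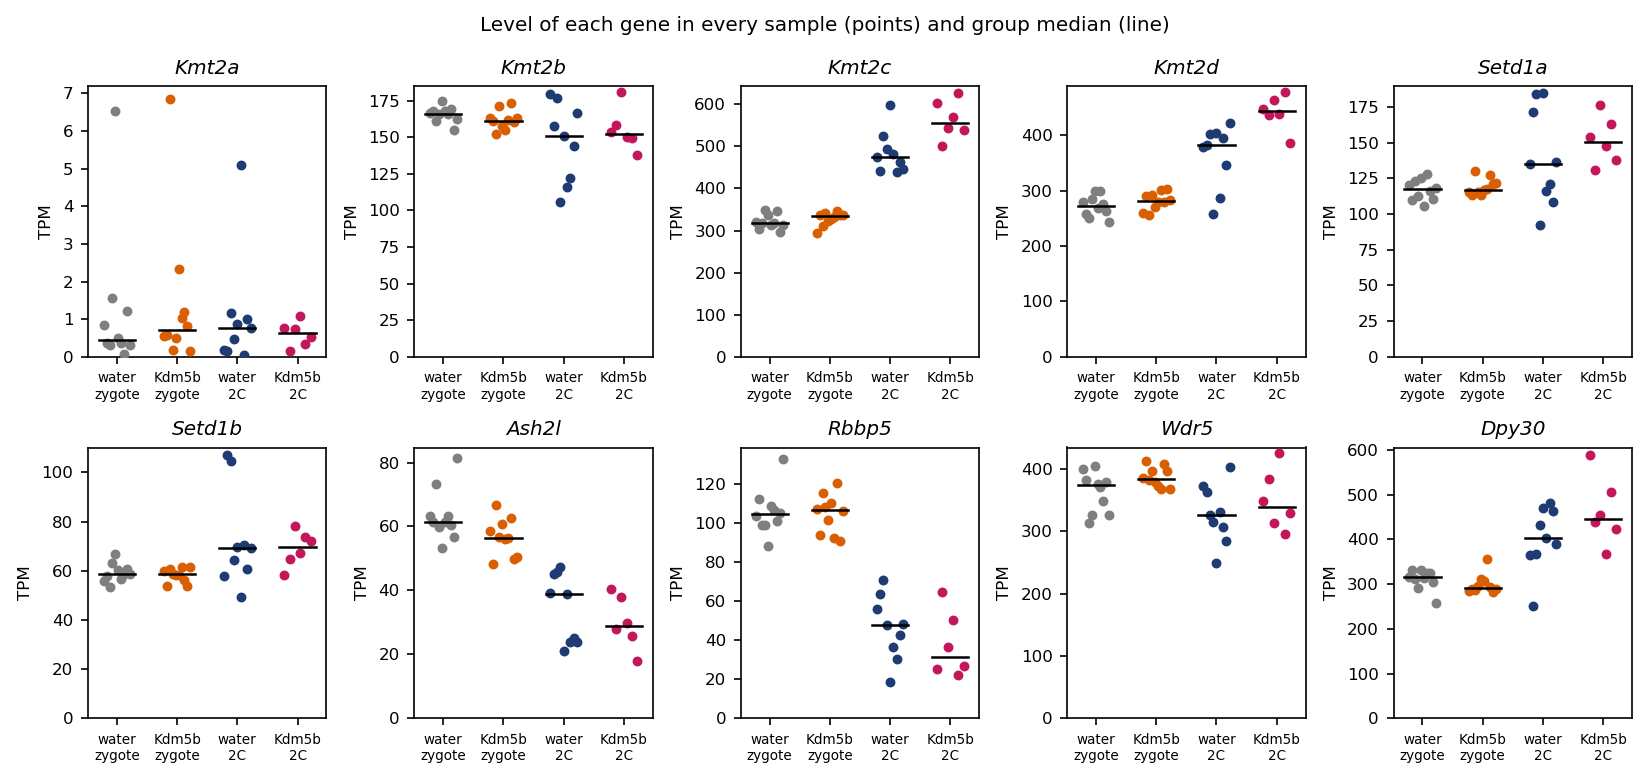
TPM of each gene in every sample (points) with the group median (line); each panel has its own axis, starting at 0, and columns are water and Kdm5b zygotes and water and Kdm5b 2C samples. In the 2C samples Kmt2c lies above, and Ash2l and Rbbp5 lie below, every zygote of the same injection, whereas Kmt2a stays at or below 1.55 TPM in all but 4 of the 35 samples.

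Ordered by median TPM, control zygotes ran from Wdr5 through Kmt2c, Dpy30, Kmt2d, Kmt2b, Setd1a, Rbbp5, Ash2l and Setd1b to Kmt2a. Neighbours were compared within samples on the log2 scale (two-sided exact sign-flip permutation test, adjusted over 36 pairs in the 4 groups). Kmt2c and Dpy30 (adjusted p = 0.34) and Ash2l and Setd1b (adjusted p = 0.32) did not differ beyond their spread, and the other 7 pairs of neighbours did. Kdm5b zygotes had the same order except that Setd1b stood before Ash2l (adjusted p = 0.358), the only pair of neighbours there not past the threshold. In control 2C samples the order was Kmt2c, Dpy30, Kmt2d, Wdr5, Kmt2b, Setd1a, Setd1b, Rbbp5, Ash2l and Kmt2a, so Wdr5 no longer stood first and Setd1b stood before Rbbp5. There Dpy30 and Kmt2d (adjusted p = 0.371), Kmt2d and Wdr5 (adjusted p = 0.246) and Kmt2b and Setd1a (adjusted p = 0.338) were not separated. Kdm5b 2C samples had that same order, with Dpy30 and Kmt2d (adjusted p = 0.611), Kmt2b and Setd1a (adjusted p = 0.625) and Rbbp5 and Ash2l (adjusted p = 0.463) not separated. With 6 samples the smallest p this test allows is 0.0312, and with single intact embryos only 12 of the 36 pairs passed instead of 27. The 5 intact Kdm5b 2C embryos cannot give a p below 0.0625, so none of their 9 pairs could pass whatever the levels were, and 5 of the 9 control 2C pairs sat at the smallest p of 6 embryos, which adjusts to 0.0592. Wdr5 and Kmt2c and Setd1a and Rbbp5 in control zygotes and Dpy30 and Kmt2d in Kdm5b zygotes were no longer separated after that adjustment.

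Control 2C samples were compared with control zygotes to describe the stage difference without injected Kdm5b-yfp mRNA. The enhancer enzymes Kmt2c and Kmt2d, both SET1 enzymes and Dpy30 were higher at the 2C stage, and Rbbp5 and Ash2l, the pair that contacts the SET domain, were lower. Kmt2b, Wdr5 and Kmt2a did not pass the test. Thus 5 of the 10 genes were called higher and 2 lower at an adjusted p under 0.05 (edgeR quasi-likelihood test, adjusted over 11968 genes), where 26.8% of all genes tested were higher and 25.4% lower. The median log2 fold change was 0.14 over the 10 genes and 0.022 over all genes. With a further threshold of 1 on the absolute log2 fold change, Rbbp5 alone remained (0 higher, 1 lower), against 9.20% and 13.0% of all genes.

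Kmt2c went from a median of 318 TPM in control zygotes to 474 TPM in control 2C samples, where it ranged from 438 to 598 TPM. All 9 control 2C samples lay above the highest control zygote, as they did for 5.8% of all genes that averaged 10 or more counts, and the ratio of medians was 1.49. Its log2 fold change was 0.68 ± 0.062 (SE, adjusted p = 1.54e-09). Kmt2d lay at 257 to 423 TPM in control 2C samples, median 383, and 7 of the 9 exceeded every control zygote (log2 fold change 0.51 ± 0.083, SE, adjusted p = 1.38e-05). The lower 2, replicates 4 and 6 at 257 and 286 TPM, were single embryos that overlapped the zygotes. The same 2 had the lowest Kmt2b, at 106 and 116 TPM, and the highest summed 2C markers of the group, at 874 and 812 TPM, and the part of these markers in the low values was not tested.

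The SET1 enzymes differed by less and with more overlap. Setd1a ranged from 92.4 to 185 TPM in control 2C samples, median 135, with 5 of 9 above every control zygote and 1 below all of them. Its log2 fold change was 0.33 ± 0.11 (SE, adjusted p = 0.0115), and the call was lost without a filter on low counts (0.24, adjusted p = 0.0771). Setd1b ranged from 49.4 to 107 TPM, median 69.3, again with 5 of 9 above every zygote and 1 below all of them (log2 fold change 0.38 ± 0.12, SE, adjusted p = 0.00783). Kmt2b ranged from 106 to 179 TPM in control 2C samples around a median of 151, both above and below the narrow range of the zygotes, with a log2 fold change of -0.09 (95% interval -0.27 to 0.092, adjusted p = 0.414). The share of Kmt2b in the summed enzyme TPM was 12.1% ± 1.47 in control 2C samples (SD, n = 9), below the 17.7% of zygotes, and that of Kmt2c was 40.4% ± 4.54. The sum itself was 937 ± 41.9 TPM in control zygotes (SD, n = 10) and 1208 ± 137 TPM in control 2C samples (SD, n = 9). The interval of Kmt2a was too wide to read a direction (log2 fold change -0.066, 95% interval -1.49 to 1.36).

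Rbbp5 showed the largest difference of the 10 genes. In control zygotes it lay at 88.1 TPM or above, and in control 2C samples it ranged from 18.7 to 70.97 TPM with a median of 47.7. No control 2C sample reached the lowest zygote, and the ratio of medians was 0.457. Its log2 fold change was -1.11 ± 0.17 (SE, adjusted p = 4.27e-06). Ash2l, its partner, ranged from 21.0 to 47.3 TPM, median 38.8, and again all 9 control 2C samples lay below every control zygote (log2 fold change -0.80 ± 0.15, SE, adjusted p = 7.24e-05). So did they for 11.6% of all genes that averaged 10 or more counts. The other 2 core subunits did not follow them. Dpy30 ranged from 250.5 to 481 TPM, median 402, with 8 of 9 above every zygote and 1 below all of them (log2 fold change 0.46 ± 0.10, SE, adjusted p = 0.0004). Wdr5 ranged from 249.8 to 404 TPM, median 327, with a log2 fold change of -0.055 (95% interval -0.23 to 0.12, adjusted p = 0.62). The summed TPM of the 4 core subunits was 843 ± 39.8 in control zygotes (SD, n = 10) and 811 ± 44.7 in control 2C samples (SD, n = 9), while the part held by Rbbp5 and Ash2l went from 12.6% and 7.56% to 5.70% ± 2.14 and 4.27% ± 1.42.

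**Figure D2:**
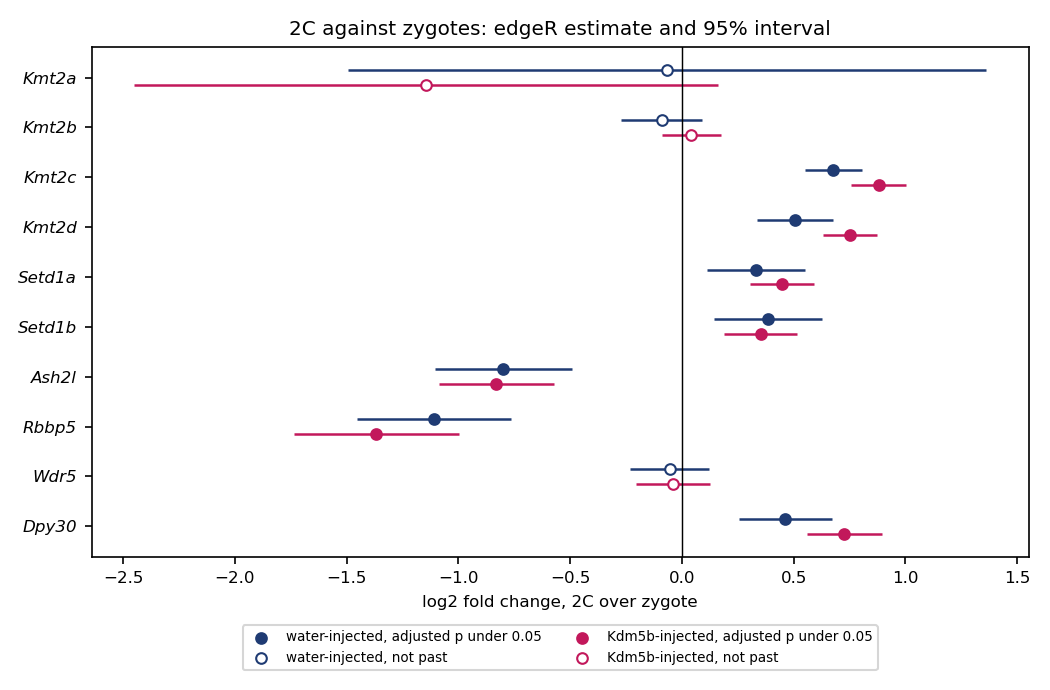
Log2 fold change of 2C samples over zygotes (horizontal axis) for each gene, with 95% intervals, in water-injected (blue) and Kdm5b-injected (pink) samples; filled points had an adjusted p under 0.05. Kmt2c, Kmt2d, Setd1a, Setd1b and Dpy30 lie to the right of 0 and Ash2l and Rbbp5 to the left with both injections.

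The 2C libraries carried index numbers of 2 runs of 8 consecutive numbers, here called strips 11 and 12. The strips were inferred from these numbers alone, and whether they were handled as separate batches is not known. They hold 3 and 6 of the control 2C samples. All 3 pools among the controls are on strip 12. With the 3 control 2C samples of strip 11 alone, log2 fold changes against control zygotes were -0.70 for Rbbp5 (adjusted p = 0.000153) and -0.51 for Ash2l (adjusted p = 0.00551), and with the 6 of strip 12 alone they were -1.43 (adjusted p = 7.81e-08) and -1.02 (adjusted p = 6.5e-06). Kmt2c was at 0.62 and 0.66. Dpy30 was 0.11 on strip 11 (adjusted p = 0.464) and 0.56 on strip 12 (adjusted p = 1.1e-06). Conversely, Setd1a and Setd1b were called on strip 11, at 0.52 and 0.64, and not on strip 12, at 0.17 (adjusted p = 0.161) and 0.18 (adjusted p = 0.0748). Kmt2b was called lower on strip 12, at -0.24 (adjusted p = 0.0212), and stood at 0.083 on strip 11 (adjusted p = 0.361). With single intact embryos only, the same 5 genes higher and 2 lower were called. The part of the strip in these differences was not tested.

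The identity of the samples was checked against marker genes. All 7 markers of the 2C stage, Zscan4c, Zscan4d, Zfp352, Usp17le, Tcstv1, Tcstv3 and Gm5662, were called higher in control 2C samples, with summed levels of 236 to 874 TPM against 25.8 to 95.4 TPM in control zygotes; Tcstv1 was the most abundant of them in control zygotes and Zfp352 in control 2C samples. Of 8 oocyte and zygote markers 7 were called lower, and their sum, led by Dppa3, went from a median of 9952 to 6171 TPM. Markers of the cumulus and granulosa cells that surround the egg were near 0. Their 10 genes summed to a median of 6.95 TPM in control zygotes and 10.1 TPM in control 2C samples, Col4a1 was the most abundant at a mean of 4.20 and 3.36 TPM, and Ptx3, Inha and Amh had no count in any control 2C sample. In the Kdm5b groups the corresponding medians were 10248 and 5825 TPM for the oocyte markers, 64.9 and 379 TPM for the 2C markers, of which 6 of 7 were called higher, and 6.90 and 6.18 TPM for the cumulus markers. The part of these lists in the differences of the 10 genes was not tested.

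Kdm5b 2C samples and Kdm5b zygotes share no embryo with the control groups, although they share the library days. The same 5 genes were called higher and the same 2 lower in them (edgeR quasi-likelihood test, adjusted over 12390 genes), where 29.3% of all genes tested were higher and 29.5% lower. Kmt2c ranged from 294 to 346 TPM in Kdm5b zygotes and from 501 to 627 TPM in Kdm5b 2C samples (log2 fold change 0.88 ± 0.060, SE, adjusted p = 1.6e-11). Kmt2d ranged from 256 to 303 TPM and from 387 to 478 TPM (0.75 ± 0.059, SE, adjusted p = 1.28e-10). Dpy30 ranged from 281 to 357 TPM and from 368 to 588 TPM (0.73 ± 0.082, SE, adjusted p = 4.69e-08). The stages did not overlap for these 3 genes, nor did they for 10.6% of all genes that averaged 10 or more counts, with every 2C sample higher.

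Setd1a likewise did not overlap, at 113 to 130.2 TPM in Kdm5b zygotes and 131 to 177 TPM in Kdm5b 2C samples (log2 fold change 0.45 ± 0.070, SE, adjusted p = 6.14e-06), and Setd1b overlapped in 1 of 6 samples (0.35 ± 0.079, SE, adjusted p = 0.00052). Rbbp5 went from 90.5 to 120.2 TPM, median 107, in Kdm5b zygotes to 22.3 to 64.4 TPM, median 31.5, in Kdm5b 2C samples, a ratio of medians of 0.296. Its log2 fold change was -1.37 ± 0.18 (SE, adjusted p = 5.22e-07). Ash2l went from 48.1 to 66.6 TPM, median 56.5, to 17.9 to 40.5 TPM, median 28.7 (log2 fold change -0.83 ± 0.12, SE, adjusted p = 3.4e-06). Both were below every Kdm5b zygote in all 6 samples, as were 18.5% of all genes. Kmt2b (0.042, 95% interval -0.091 to 0.18), Wdr5 (-0.04, 95% interval -0.21 to 0.13) and Kmt2a (-1.14, 95% interval -2.45 to 0.16) did not pass. With the threshold on the fold change, Rbbp5 alone remained, where 10.5% of all genes were higher and 16.0% lower. The median log2 fold change was 0.20 over the 10 genes and 0.0078 over all genes.

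**Figure D3:**
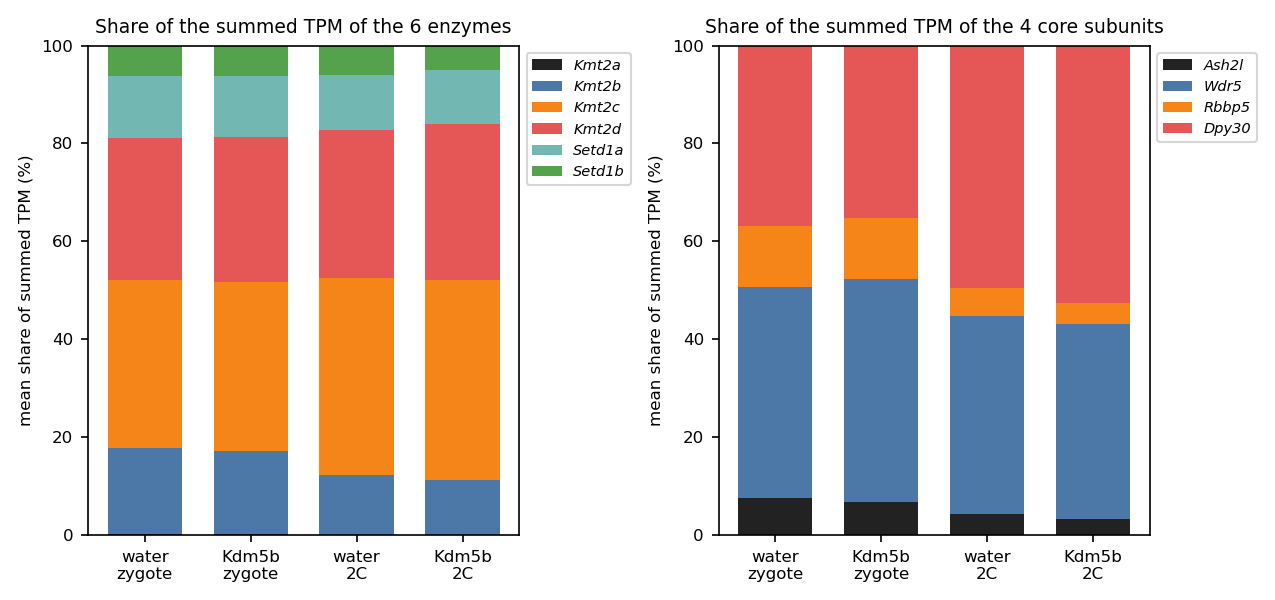
Mean share of each gene in the summed TPM of the 6 enzymes (left) and of the 4 core subunits (right), in percent, for the 4 groups. The Kmt2b share is 17.7% and 17.0% in zygotes and 12.1% and 11.2% in 2C samples, and the Dpy30 share of the core is 36.9% and 35.3% in zygotes and 49.5% and 52.6% in 2C samples.

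The spread of TPM among samples was larger in 2C samples than in zygotes of the same injection for each of the 9 genes other than Kmt2a. For these genes the coefficient of variation of TPM over control zygotes lay between 3.16% for Kmt2b and 12.9% for Ash2l, and over control 2C samples between 10.5% for Kmt2c and 35.5% for Rbbp5. Kmt2b itself, the most even gene among control zygotes, had 18.2% among control 2C samples. Kdm5b zygotes lay between 4.01% for Kmt2b and 10.4% for Ash2l, and Kdm5b 2C samples between 7.06% for Kmt2d and 44.6% for Rbbp5. These spreads are given as a description, and pooled 2C samples and both strips are among them. The share of all genes with a larger spread in 2C samples was not counted. The difference can thus not be called particular to these genes.

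Kmt2a was uneven in another way. Counts were above 0 in all 35 samples but mostly low, with medians of 37, 53.5, 41 and 34.5 counts in control zygotes, Kdm5b zygotes, control 2C and Kdm5b 2C samples. Single samples stood far above the rest of their group: a control zygote with 535 counts (6.52 TPM), a Kdm5b zygote with 587 counts (6.85 TPM) and a control 2C embryo with 255 counts (5.08 TPM). In the same 3 samples its paralog Kmt2b was at 175 TPM, the highest of its group, 152 TPM, the lowest of its group, and 116 TPM. Across control zygotes, Kdm5b zygotes, control 2C and Kdm5b 2C samples, the coefficient of variation of Kmt2a TPM was 159%, 141%, 143% and 55.9%. No group comparison of Kmt2a passed, and none of the differences between groups could be resolved. The part of the low counts in this was not tested.

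Kdm5b and control samples of the same stage were then compared to ask whether transcripts of the H3K4 writers differ when the eraser KDM5B is supplied. In zygotes none of the 10 genes was called, in a comparison where 0.134% of 11933 genes were (edgeR quasi-likelihood test). The intervals were narrow for most genes. Log2 fold changes were -0.023 for Kmt2b (95% interval -0.10 to 0.056), 0.043 for Kmt2c (-0.042 to 0.13), 0.059 for Kmt2d (-0.034 to 0.15), 0.038 for Setd1a (-0.060 to 0.14) and -0.012 for Setd1b (-0.11 to 0.087). Among the core subunits they were -0.0042 for Rbbp5 (95% interval -0.14 to 0.13) and -0.042 for Dpy30 (-0.16 to 0.072). Kmt2a was at 0.25 with a wide 95% interval, from -0.97 to 1.46. An unadjusted p under 0.05 was reached by Ash2l, at a median of 56.5 TPM in Kdm5b against 61.3 TPM in control zygotes (log2 fold change -0.16, 95% interval -0.31 to -0.0042, adjusted p = 0.468), and by Wdr5, at 384 against 374 TPM (0.10, 95% interval 0.0017 to 0.20, adjusted p = 0.475). Both ranges overlapped, with 3 of 10 Kdm5b zygotes below every control for Ash2l and 2 of 10 above every control for Wdr5. Over all genes, 1234 of 11933 had an unadjusted p under 0.05. The other tools run, DESeq2 and limma voom, also called 0 of the 10.

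In 2C samples none of the 10 genes was called either, in a comparison where 0.0245% of 12244 genes were. Kmt2c and Kmt2d were the pair with an unadjusted p under 0.05, which 1152 of all 12244 genes reached. Kmt2c lay at 501 to 627 TPM in Kdm5b 2C samples, median 557, against 438 to 598 TPM, median 474, in controls. All 6 exceeded the control mean and 2 exceeded every control (log2 fold change 0.26, 95% interval 0.086 to 0.43, adjusted p = 0.324). For Kmt2d, 5 of 6 Kdm5b samples exceeded every control, at a median of 443 against 383 TPM (0.32, 95% interval 0.096 to 0.54, adjusted p = 0.343). Other log2 fold changes were 0.12 for Kmt2b (95% interval -0.12 to 0.37), 0.17 for Setd1a (-0.12 to 0.46), -0.029 for Setd1b (-0.35 to 0.29), 0.13 for Wdr5 (-0.12 to 0.38) and 0.24 for Dpy30 (-0.05 to 0.53). For Ash2l and Rbbp5 they were -0.17 (95% interval -0.61 to 0.28) and -0.25 (-0.80 to 0.30). Kmt2a was at -0.80 with a wide 95% interval, from -2.28 to 0.68. DESeq2 and limma voom called 0 of the 10. A single fit of all 35 samples, in which zygotes and 2C samples share the estimate of spread, called Kmt2c (0.25, adjusted p = 0.0177) and Kmt2d (0.31, adjusted p = 0.0225) among 528 of 13778 genes called. The coefficient of variation of Kmt2c was 5.45% in control zygotes and 10.5% in control 2C samples, and that of Kmt2d 7.06% and 15.6%. A spread shared with zygotes can thus be too small for a comparison of 2C samples.

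The strips are uneven in this comparison, since strip 11 holds 3 control and 5 Kdm5b 2C samples and strip 12 holds 6 and 1. With the strip as a covariate, Kmt2c was 0.30 (adjusted p = 0.0997) and Kmt2d 0.30 (adjusted p = 0.201). Within strip 11 they were 0.26 (adjusted p = 0.399) and 0.23 (adjusted p = 0.444). With the covariate the estimates of Rbbp5 and Dpy30 were larger, at -0.62 (adjusted p = 0.222) and 0.44 (adjusted p = 0.112), and within strip 11 they were -0.58 (adjusted p = 0.408) and 0.53 (adjusted p = 0.218). Ash2l was at -0.36 with the covariate (adjusted p = 0.454) and -0.45 within strip 11 (adjusted p = 0.504). Within strip 11 Rbbp5 lay at 55.7, 63.5 and 70.97 TPM in the controls and at 25.0, 64.4, 36.4, 50.4 and 26.7 TPM in the Kdm5b samples. In other words, 4 of the 5 Kdm5b samples were below all 3 controls there. The Kdm5b sample at 26.7 TPM was a pool of 3 blastomeres, whereas the 3 controls were single intact embryos. The part of pooling in this gap was not tested. Against the controls of both strips, 0 of the 6 Kdm5b samples lay below the lowest. On strip 12 the Kdm5b sample, at 22.3 TPM, lay within the controls, at 18.7 to 48.2 TPM. The share of all genes with such a gap in strip 11 was not counted. Strip 12 holds 1 Kdm5b sample and gave no test of its own.

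**Figure D4:**
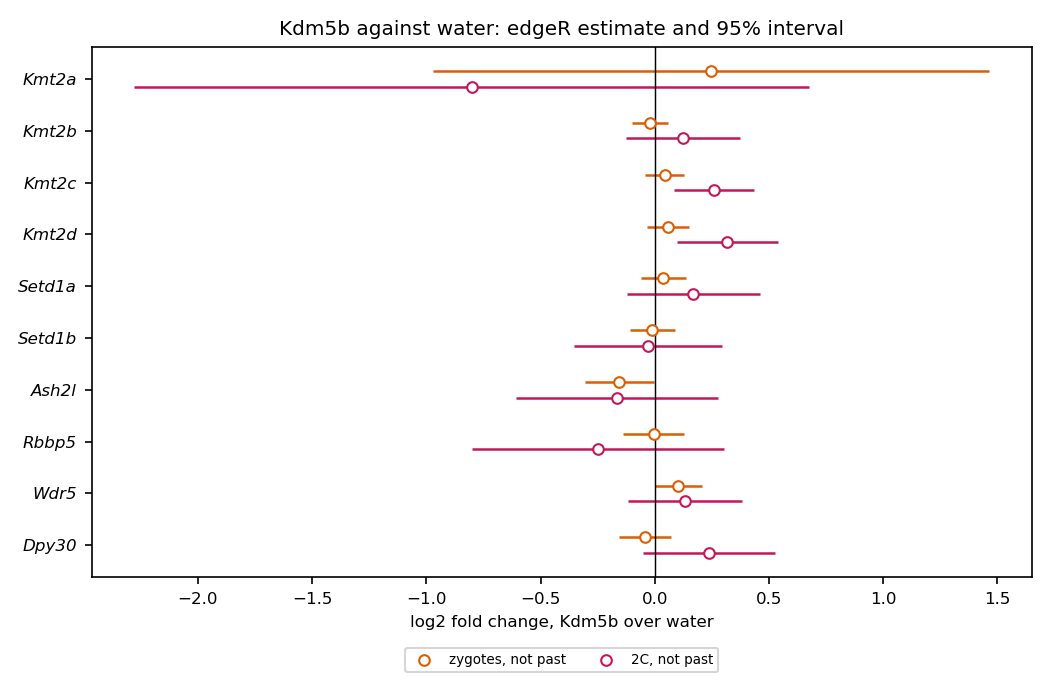
Log2 fold change of Kdm5b over water (horizontal axis) for each gene, with 95% intervals, in zygotes (orange) and 2C samples (pink); open points had an adjusted p of 0.05 or more. No gene passed, and the intervals of zygotes are narrower than those of 2C samples.

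An interaction term over all 35 samples, with an estimate of spread that both stages share, compared the Kdm5b difference of the 2 stages directly. None of the 10 genes was called, where 0.109% of 13778 genes were. Unadjusted p-values under 0.05 were reached by Kmt2c (difference of log2 fold changes 0.22, 95% interval 0.050 to 0.39, adjusted p = 0.366), Kmt2d (0.26, 95% interval 0.044 to 0.47, adjusted p = 0.423) and Dpy30 (0.28, 95% interval 0.013 to 0.55, adjusted p = 0.508). Over all genes, 1254 of 13778 had such a p. Within the injected samples, a slope of expression was fitted against the log2 share of Kdm5b in the counts. It was called for 0 of the 10 genes in zygotes and 0 of 9 in 2C samples, where Kmt2a did not pass the filter on low counts. Over all genes, 0 of 10273 were called in zygotes and 0 of 9499 in 2C samples, so these zeros are not particular to the 10 genes. Of the 10 genes 0 had an unadjusted p under 0.05 in either, against 369 and 743 of all genes. DESeq2 called 0 of the 10 genes in the interaction and in the slope of zygotes, and 0 of the 7 genes to which it gave an adjusted p in the slope of 2C samples (none to Kmt2a, Ash2l and Rbbp5).

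The 3 pairs of paralogs were also compared as ratios within a sample, which do not depend on the scaling between samples. None of 12 comparisons passed after adjustment (two-sided permutation test, exact except between the groups of 10 zygotes). The log2 ratio of Kmt2c to Kmt2d was 0.24 ± 0.091 in control zygotes (SD, n = 10) and 0.42 ± 0.28 in control 2C samples (SD, n = 9), a difference of 0.19 (exact permutation p = 0.0681, adjusted p = 0.409). Between Kdm5b zygotes, at 0.22 ± 0.055 (SD, n = 10), and Kdm5b 2C samples, at 0.35 ± 0.11 (SD, n = 6), it differed by 0.13 (exact permutation p = 0.013, adjusted p = 0.156). Without Kdm5b 2C replicate 2 this difference was 0.16 (adjusted p = 0.048). That run was picked from those that left out each of the 35 samples in turn, and its adjusted p does not account for the choice. Setd1a stood above Setd1b by 0.98 ± 0.14 on the log2 scale in control zygotes (SD, n = 10) and by 0.94 ± 0.29 in control 2C samples (SD, n = 9).

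Likeness over the 35 samples was measured as the root mean square difference of log2 CPM after each gene had been centred on its mean. Kmt2c and Kmt2d were each other's nearest gene among the 10, at 0.17, as were Setd1a and Setd1b at 0.19, Kmt2b and Wdr5 at 0.19 (no nearer than a flat profile, at 0.17 and 0.18), and Rbbp5 and Ash2l at 0.42. Dpy30 was nearest to Kmt2c, at 0.20. Kmt2a was nearest to Wdr5 at 1.46, hardly less than its distance of 1.47 from a flat profile. Outside the 10 genes, the nearest to Kmt2c was Fbxo11, a substrate receptor of a ubiquitin ligase, at 0.11, and the nearest to Kmt2d was Pcnx at 0.12. The nearest to Rbbp5 was Cdc25a, a phosphatase that activates cyclin-dependent kinases, at 0.23, and the nearest to Ash2l was Ccnl2, a cyclin linked to splicing, at 0.19. The samples span both stages, so these distances restate in part the stage difference.

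Other genes of the pathway were taken from lists. Of 12 subunits found in only some of the complexes, 7 were called higher and 1 lower between control zygotes and control 2C samples, with 0 past the threshold on the fold change and a median log2 fold change of 0.32. The 1 lower was Cxxc1, the CpG-binding subunit of the SET1 complexes, named here after its values were seen. Its median went from 70.5 TPM in control zygotes to 37.2 TPM in control 2C samples (log2 fold change -0.90 ± 0.16, SE, adjusted p = 2.84e-05). Of the 12, 6 were called higher and 3 lower between the Kdm5b groups, with 1 past the threshold on the fold change (Ncoa6, 1.04, adjusted p = 1.3e-10), and Cxxc1 was at -0.52 ± 0.17 there (SE, adjusted p = 0.00904). The shares of all genes called, given above, were 26.8% and 25.4% between the control groups and 29.3% and 29.5% between the Kdm5b groups.

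Of 5 other SET domain genes linked to H3K4, 4 passed the filter, and 3 were past both thresholds between the control groups (1 higher and 2 lower), where 9.20% of all genes were past both and higher and 13.0% lower. Prdm9, the methyltransferase that marks meiotic recombination sites, had a median of 2.39 TPM in control zygotes and 11.0 TPM in control 2C samples (log2 fold change 2.22 ± 0.33, SE, adjusted p = 3.62e-06). Smyd3 went from 41.2 to 11.9 TPM (-1.41 ± 0.21, SE, adjusted p = 3.75e-06), and Smyd2 from 7.15 to 2.80 TPM (-1.01 ± 0.41, SE, adjusted p = 0.0418). Of 5 H3K4 demethylases other than Kdm5b, 4 passed the filter and 2 were called higher, against 26.8% of all genes. Kdm5a was past both thresholds, at a median of 1.60 TPM in control zygotes and 4.71 TPM in control 2C samples (1.73 ± 0.28, SE, adjusted p = 1.11e-05). Between Kdm5b and control samples, 0 genes of these 3 lists were called at either stage. An unadjusted p under 0.05 was reached by Cxxc1 in zygotes (log2 fold change -0.23, adjusted p = 0.227) and by Wdr82 (0.34, adjusted p = 0.331) and Ncoa6 (0.26, adjusted p = 0.502) in 2C samples, named after their values were seen. Over all genes, 1234 of 11933 had such a p in zygotes and 1152 of 12244 in 2C samples.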

How the data were processed

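Per the labels and the methods, libraries were made with a stranded SMART-Seq kit (10 and 13 PCR cycles) and sequenced as paired reads. The authors trimmed reads with fastp 0.21.0, aligned them to GRCm38 with STAR 2.7.3a and counted fragments per gene on the RefSeq annotation with featureCounts 1.5.1 in its reverse-stranded paired setting; multi-mapping fragments do not enter these counts. The authors deposited raw counts of whole fragments for each gene and sample. A deposited table of repeat counts was not used here. The number of count columns without a matching sample was 0. Positions and exon lengths came from the deposited count table.

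The Kdm5b row was removed. For each comparison edgeR 4.0.16 (R 4.3.3) was run on the groups compared (TMM, filterByExpr with a minimum count of 10, quasi-likelihood test, Benjamini-Hochberg adjustment over all genes tested); a gene was called at an adjusted p under 0.05, with a second threshold of 1 on the absolute log2 fold change. The SE is that implied by the fold change and its F statistic. TPM was computed from counts and exon lengths, with 0.5 added to counts for ratios. CPM for likeness had a prior count of 2. Single measures were compared with permutation tests in scipy 1.17.1 (100000 resamples between groups of 10, exact otherwise). The median gene differed in TPM by -0.041 (log2) between the control stages and by -0.07 between the Kdm5b stages.

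Alternatives used limma 3.58.1 (voom with sample weights), DESeq2 1.42.0 or its size factors, no filter or a mean of at least 50 counts, the Kdm5b row, 1 fit of all samples, blocks by replicate number, index strips, single intact embryos only, or every sample but 1. All 10 genes, the genes named from the lists (those past both thresholds between the control stages, and Cxxc1, Wdr82 and Ncoa6, named after their values were seen), the nearest outside gene of the 2 largest rises and falls, and the lists themselves were chosen with earlier results of these data known. Separate samples were separate embryos or pools, from zygotes of several females; no pair of samples in a group agreed within sampling noise (chi-square per degree of freedom at least 11.6). Intervals cover the spread between samples.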

Additional observations from a re-analysis of the deposited data

Results flagged for a closer look

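In 5 of 40 sets of values (10 genes in 4 groups) the highest or lowest sample stood apart from the others of its group. The rule was Dixon's test at the 95% level, which chance alone passes in about 1 of 20 for normally distributed values. Kmt2a TPM was skewed, with a mean of 1.21 and a median of 0.445 in control zygotes, so that rate need not hold. For Kmt2a the sample that stood apart was the highest in 3 groups. Control zygote replicate 5 had 6.52 TPM, with the next at 1.55 TPM, Kdm5b zygote replicate 3 had 6.85 TPM, with the next at 2.34 TPM, and control 2C replicate 6 had 5.08 TPM, with the next at 1.18 TPM. The summed cumulus and granulosa markers were at 6.75, 8.28 and 22.1 TPM in these 3 samples, and 22.1 TPM was the highest of all samples; the part of these markers was not tested.

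For Dpy30, Kdm5b zygote replicate 7 was the highest of its group at 357 TPM, with the next at 311 TPM, and control 2C replicate 2 the lowest of its group at 250.5 TPM, with the next at 365 TPM. Without the latter the log2 fold change of Dpy30 between the control stages was 0.53. Without control zygote replicate 5 or control 2C replicate 6 the Kmt2a difference between the control stages was 0.88 or -0.93, neither past the threshold.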

How the results depend on the processing

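The 5 genes called higher and 2 called lower between the control stages kept their direction in all 11 alternative settings and with any 1 sample left out, and those between the Kdm5b stages in all 9. Setd1a between the control stages lost its call without a filter on low counts (0.24, adjusted p = 0.0771), and the strips changed the calls of Setd1a, Setd1b, Dpy30 and Kmt2b as given above; these 2 strip settings and the fit within strip 11 were added after seeing the data. With the fold change threshold 1 gene, Rbbp5, remained in each stage comparison; in the control stages 0 remained with strip 11 and 2 with strip 12, where Ash2l was at -1.02. The single fit of all 35 samples called 2 of the 10 genes between Kdm5b and water in 2C, among 528 of all 13778 genes tested. The number of neighbours told apart in the order of levels was 12 with single intact embryos, all in zygotes, since 5 Kdm5b 2C embryos cannot give a p below 0.0625 and 5 of the 9 control 2C pairs sat at the smallest p that 6 embryos allow; in zygotes the adjusted p of 3 pairs whose own samples had not changed went to between 0.0592 and 0.0598, and the number of paralog ratios past the threshold was 0 to 1 with a sample left out.

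Signs changed only for differences that were not called with the main settings. Of these, Kmt2b between the control stages was called in 1 alternative, strip 12, as given above. Between Kdm5b and water in 2C, limma voom gave 0.096 for Kmt2a and 0.11 for Setd1b, and strip 11 alone gave 0.40 for Kmt2a, -0.071 for Kmt2b and -0.073 for Setd1a. Between the control stages, Kmt2a was 0.18 with single embryos and 0.23 with strip 12, and strip 11 gave 0.083 for Kmt2b and 0.00037 for Wdr5. Between the Kdm5b stages Kmt2b was -0.031 without a filter, and Wdr5 was 0.011 with DESeq2's size factors and 0.0093 with its Wald test. With a sample left out, values between Kdm5b and water ranged in zygotes from -0.55 to 1.21 for Kmt2a, -0.030 to 0.0075 for Setd1b and -0.032 to 0.039 for Rbbp5, and in 2C from -1.08 to 0.058 for Kmt2a and -0.088 to 0.054 for Setd1b. With no change of sign, Rbbp5 in 2C ranged from -0.48 without Kdm5b replicate 2 to -0.13 without Kdm5b replicate 5 and Ash2l from -0.26 to -0.079, and limma voom gave -0.0053 for Ash2l. Between stages they ranged from -0.93 to 0.88 for Kmt2a in controls, and from -0.0047 to 0.062 for Kmt2b and -0.12 to 0.0079 for Wdr5 in Kdm5b samples. The ratio of Kmt2a to Kmt2b ranged from -0.55 to 0.26 between Kdm5b and water in 2C and from -0.41 to 0.40 between the control stages, and that of Setd1a to Setd1b from -0.099 to 0.011 between the control stages. The causes were not tested.

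Same-numbered samples of different groups did not deviate together (correlations from -0.19 to 0.099). Same-numbered control and Kdm5b zygotes carried index numbers of the same strip, as did some of the 2C samples. The correlations cannot show whether such samples shared a collection or handling. With the replicate block, 0 genes were called between Kdm5b and water at either stage or in the interaction, and 7 in each stage comparison. Over all genes, 3 were called between Kdm5b and water in 2C, against 105 with the DESeq2 Wald test, 8 with limma voom, 9 without a filter or with the stricter one, 17 with the block, 253 with the strip covariate, 111 in strip 11, 0 in single embryos and 0 to 6 with a sample left out; in zygotes 16 were called, against 101 with the Wald test, 0 in the single fit and 5 to 29 with a sample left out, and in the interaction 15, against 88 with the Wald test and 36 in single embryos. Precision was limited for Kmt2a, whose counts were mostly low and uneven, and by the 6 Kdm5b 2C samples and their uneven strips. The part of the low counts in the wide intervals of Kmt2a was not tested.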
